A study of Mus musculus with 46 samples.

Results

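Apoe and 8 further genes that handle cholesterol and lipid were followed across microglia of the mouse brain. The set held the secreted lipid carrier Apoe, the lipase Lpl, the efflux transporters Abca1 and Abcg1, the sterol enzymes Ch25h and Soat1, the sterol receptors Nr1h2 and Nr1h3, and the ubiquitin ligase Mylip. They were chosen by name, as genes of one pathway, with earlier results of these data known. All 9 were found by symbol among the 20999 genes of the deposited count table, and all 9 were among the 12230 genes that passed the filter on low counts.

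Microglia that carry more cholesterol than they need convert part of it to oxysterols, which bind the liver X receptors encoded by Nr1h2 and Nr1h3. These receptors switch on Abca1, Abcg1, Apoe, Lpl and Mylip. The transporters hand cholesterol to lipoprotein particles built around apolipoprotein E, and the Mylip protein, a ubiquitin ligase, limits the uptake of lipoprotein. In the brain most apolipoprotein E comes from astrocytes in health, and microglia raise it in development and around damage.

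RNA was measured in 10 libraries, with 2 labelled as independent biological replicates in each of 5 groups. Adult libraries came from wild-type C57BL/6 males aged 90 days, and their cell type label reads Ki67-negative. Libraries of postnatal day 8 (PND8) came from males aged 8 days that carried the Ki67-rfp reporter, a fluorescent tag on a protein of cycling cells, and were sorted into Ki67-negative and Ki67-positive microglia. Repopulation libraries came from Ki67-rfp males aged 75 days. These mice had received PLX5622, an inhibitor of the CSF1 receptor that depletes microglia, from day 55 for 17 days, followed by 3 days of recovery, and were sorted in the same way. H3K27ac, an acetylated histone found at promoters and enhancers in use, was mapped in 12 libraries of wild-type mice, in 6 groups of 2. They were adult (60 and 65 days), PND8 Ki67-negative and Ki67-positive (8 days), cuprizone Ki67-negative and Ki67-positive (90 days) and repopulation Ki67-positive (90 days, PLX5622 from day 70 for 17 days and 3 days of recovery). Cuprizone, a copper chelator that strips myelin, had been given for 4 weeks. For H3K27ac, Ki67 was stained by antibody in fixed cells, so the chromatin and the RNA came from different mice and different sorts. The other start-site marks came from C57BL/6 males too: H3K4me3 from 2 adult libraries (75 days), Rpb2, a subunit of RNA polymerase II, from 2 adult libraries (60 and 65 days) and 1 of PND8 Ki67-positive cells, and ATAC-seq, which maps open chromatin, from 1 library each of adult (80 days), PND8 Ki67-positive and repopulation Ki67-positive cells. For ATAC-seq the repopulation mouse was aged 75 days, with PLX5622 from day 55 for 17 days and 3 days of recovery. The titles of the PND8 and repopulation ATAC-seq libraries name the Ki67-rfp line and that of the adult one does not, whereas the genotype label of all 3 is wild type.

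Library totals lay between 6865903 and 10287876 counts. Mki67 followed the sort. It was at 11.0 and 13.4 CPM (counts scaled to a common library size) in the adult libraries, between 242 and 463 in the Ki67-negative and between 920 and 1107 in the Ki67-positive libraries. The Ki67-negative libraries thus held Mki67 above the adult level, so the Ki67 comparisons set apart fractions that both carry Mki67 RNA. The 12 microglia markers, P2ry12 and Tmem119 among them, summed to between 8204 and 10983 CPM in every library and none was at 0. The adult libraries differed from the others in mouse line and in a numeric header code as well as in age and treatment, and these cannot be told apart. With 2 libraries a group the p-values measure only the spread between these samples. In bulk RNA, fewer cells that express a gene and less RNA per cell cannot be told apart.

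Compared with adult microglia, PND8 cells held more Apoe and Lpl RNA and less Mylip. Repopulating cells held less Apoe, Abca1, Abcg1, Soat1 and Mylip and more Lpl and Ch25h. Of the 9 genes, 3 changed at PND8 in Ki67-positive cells and the same number in Ki67-negative cells, where 49.5% and 46.8% of all tested genes changed (edgeR quasi-likelihood test, adjusted p under the threshold of 0.05). In repopulation 7 of 9 changed in Ki67-positive and in Ki67-negative cells, where 44.9% and 39.2% of all genes did. The median log2 difference of the 9 genes from adult was −0.15 and 0.01 at PND8 (Ki67-positive, Ki67-negative) and −0.51 and −0.27 in repopulation, and that of all tested genes lay between −0.01 and 0.03. Set directly against PND8, repopulation changed 7 of 9 in Ki67-positive and 6 of 9 in Ki67-negative cells, against 30.9% and 36.6% of all genes. Between Ki67-positive and Ki67-negative cells of the same age and treatment, none of the 9 changed at PND8 (5.90% of all genes) and 1 of 9 changed in repopulation (2.74%).

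**Figure D1:**
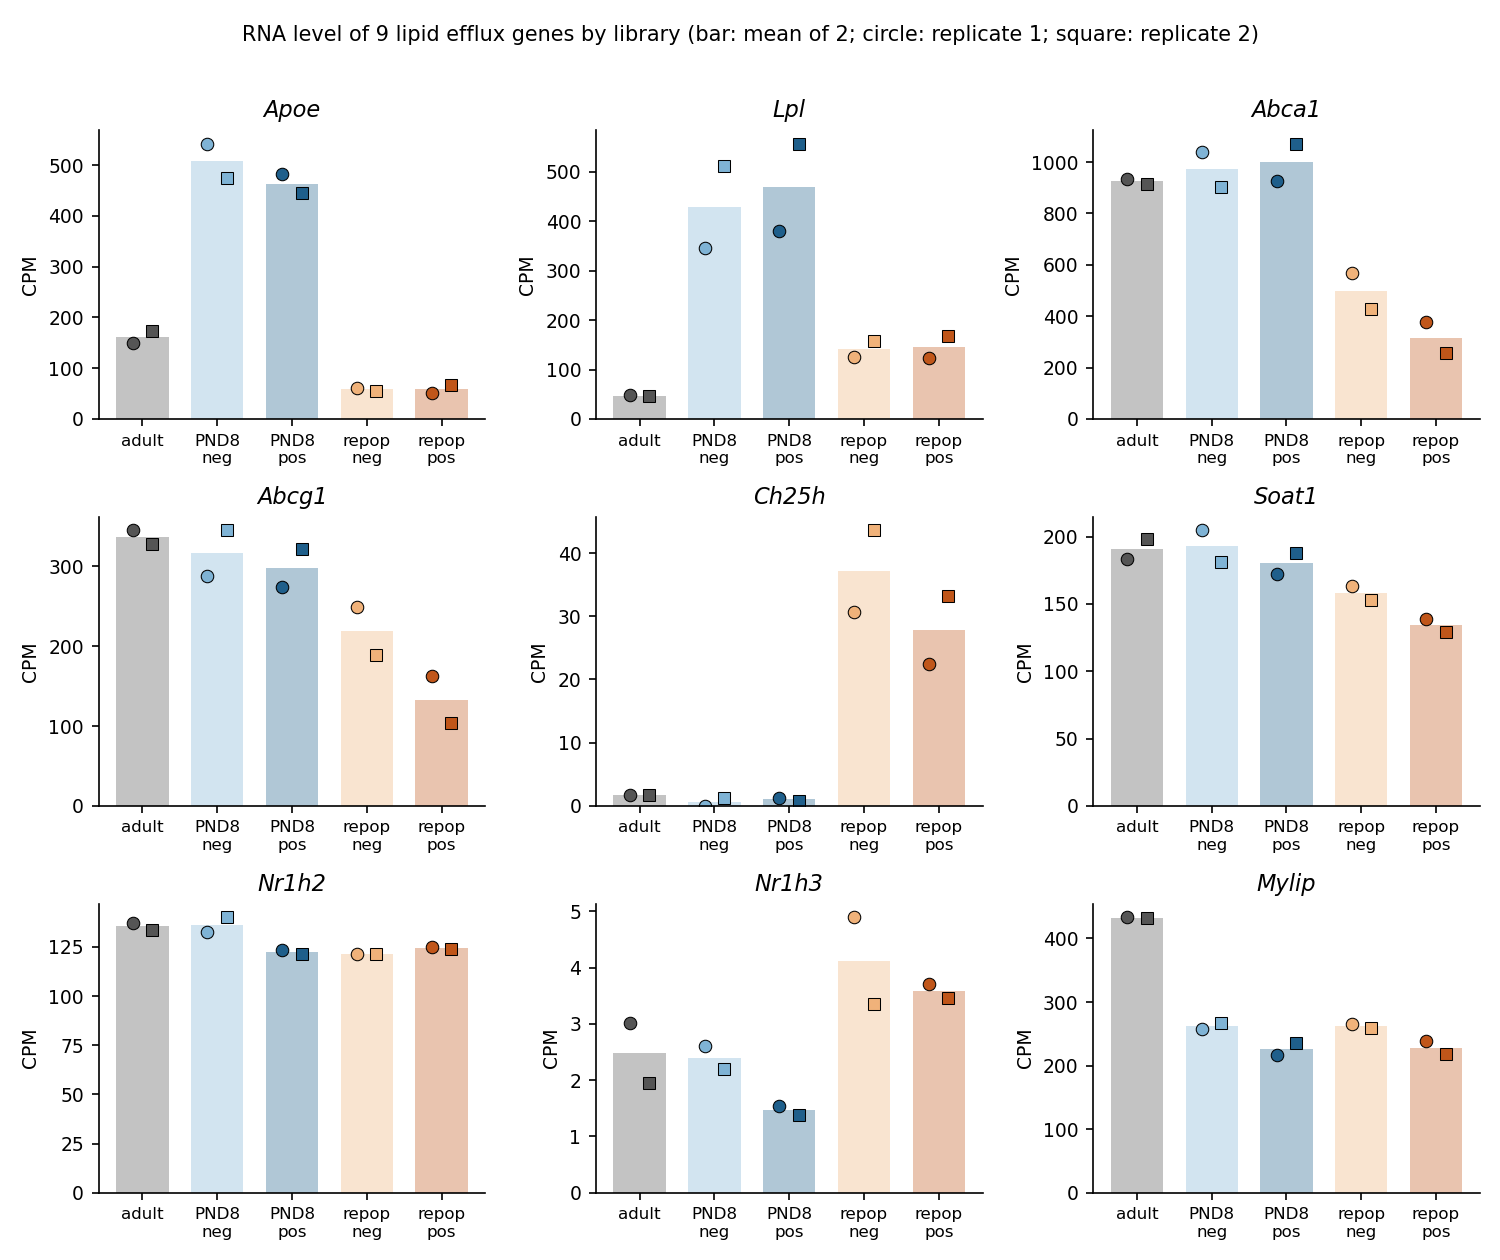
Level of each of the 9 genes in CPM (y axis, from 0), with bars for the mean of 2 libraries and a point for each library, in the 5 groups (repop: repopulation, neg and pos: Ki67-negative and Ki67-positive). Apoe sits lowest in repopulation and highest at PND8, and Ch25h is at most 1.73 CPM outside repopulation.

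Levels can be set against each other only per length, which the deposited TPM values (scaled for transcript length and library size) allow. In adult microglia the mean TPM was 219 ± 1.0 for Mylip, 202 ± 20.2 for Apoe, 136 ± 2.8 for Abca1, 102 ± 2.1 for Nr1h2, 87.3 ± 3.5 for Abcg1, 60.3 ± 3.1 for Soat1, 17.7 ± 0.62 for Lpl, 2.07 ± 0.37 for Nr1h3 and 1.91 ± 0.025 for Ch25h (SD, n = 2). Mylip and Apoe, and Nr1h3 and Ch25h, stood within their spread of each other. At PND8 Apoe led at 625 ± 56.8 in Ki67-negative and 575 ± 35.2 in Ki67-positive cells, with Lpl (158 ± 45.1 and 174 ± 45.5) within its spread of Abca1 (141 ± 12.3 and 147 ± 14.2). In repopulation Mylip led at 127 ± 6.2 and 109.5 ± 8.7, above Nr1h2 (87.0 ± 2.8 and 88.6 ± 1.5), Abca1 (70.4 ± 15.8 and 44.3 ± 12.5) and Apoe (70.4 ± 7.2 and 71.1 ± 10.9). Ch25h, last or next to last in the other groups, reached 39.0 ± 8.5 and 29.1 ± 7.6 there.

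Apoe encodes the main lipoprotein component that brain cells secrete. Its gene lies on chr7:19696244-19699188 of mm10 on the minus strand. The 2 adult libraries held 149 and 173 CPM. PND8 Ki67-negative cells held 543 and 474 CPM and Ki67-positive cells 482 and 446. Repopulating Ki67-negative cells held 61.2 and 55.5 CPM and Ki67-positive cells 52.0 and 66.9. The groups of different age or treatment did not overlap: every PND8 library was above, and every repopulation library below, both adult libraries. Apoe rose 2.88-fold in PND8 Ki67-positive cells (log2 1.53, SE 0.12, edgeR adjusted p = 2.59e-07) and 3.16-fold in Ki67-negative cells (log2 1.66, adjusted p = 1.64e-07). It fell by 1.44 on the log2 scale in repopulating Ki67-positive cells (SE 0.13, edgeR adjusted p = 9.4e-07) and by 1.46 in Ki67-negative cells. The direct difference between repopulation and PND8 was −2.97 in Ki67-positive cells (edgeR adjusted p = 2.45e-09), or 7.83-fold, and −3.12 in Ki67-negative cells. Of these libraries, repopulation replicate 1 and PND8 replicate 2 share a header code, and between them the log2 difference was −3.09 in Ki67-positive and −2.95 in Ki67-negative cells. Ki67 status made no difference that passed the test (log2 −0.13 at PND8, 0.02 in repopulation).

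Per the file headers at most 3 tags were counted at a position, and Apoe reached 3.87 counts per base of exon, more than 99.9% of genes. A cap of this kind can hold down its highest values, which are those of PND8.

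Chromatin at Apoe set PND8 apart from adult, as the RNA did, but adult and repopulation, which the RNA separated, overlapped in H3K27ac. The 250 bases before the start site (chr7:19699189-19699438, minus strand, RefSeq promoter of GRCm38.p6) are shown because H3K27ac regions covered this stretch in some groups and not in others. Capitals mark GAGGAA, the core of the sites bound by PU.1, the lineage factor of microglia:
Apoe upstream: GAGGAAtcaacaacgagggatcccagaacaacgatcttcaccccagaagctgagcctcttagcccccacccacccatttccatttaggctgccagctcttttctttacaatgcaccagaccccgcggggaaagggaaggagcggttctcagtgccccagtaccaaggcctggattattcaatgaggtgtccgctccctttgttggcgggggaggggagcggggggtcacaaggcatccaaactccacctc
A further GAGGAA lies on the other strand at bases 1 to 6 after the start. GAGGAA occurs in 28.3% of the 32851 RefSeq promoter windows of this length.

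No H3K27ac region lay within 1 kb of this start site in the 2 adult or the 2 repopulation libraries. In the 8 PND8 and cuprizone libraries called regions covered between 72.6 and 100% of that window. Within 20 kb each side, coverage was 9.0 and 11.0% in adult and 11.8 and 9.0% in repopulation. It was 25.1 and 26.2% in PND8 Ki67-negative, 20.6 and 23.0% in PND8 Ki67-positive, 25.3 and 28.1% in cuprizone Ki67-negative, and 27.5 and 27.8% in cuprizone Ki67-positive cells. The adult and repopulation libraries overlapped and lay below all others. When each value was divided by the total length of regions in its list, both repopulation libraries fell below both adult ones.

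Merging the regions of all 12 libraries gave 4 intervals around Apoe. The first, chr7:19682977-19685368, lies 13.8 to 16.2 kb downstream, between Apoc4 and Apoc1, and was called in 7 libraries: both PND8 Ki67-negative, 1 PND8 Ki67-positive and all 4 cuprizone libraries. The second, chr7:19692699-19695620, lies 3.6 to 6.5 kb downstream, between Apoc1 and Apoe, and was called in all but the 2 repopulation libraries. The third, chr7:19698091-19702655, holds the start site and the end of Tomm40. In adult and repopulation only its side towards Tomm40, more than 1 kb upstream of the start used, was called. RefSeq extends Apoe upstream to chr7:19701310, so that side may belong to either gene. It also lists Apoe starts at 19698621 and 19698398, inside the 1 kb window. The fourth, chr7:19714123-19716997, at the start of Tomm40 and the end of Nectin2 (both on the minus strand), was called in all 12. A region that was not called may still hold the mark below the authors' threshold.

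**Figure D2:**
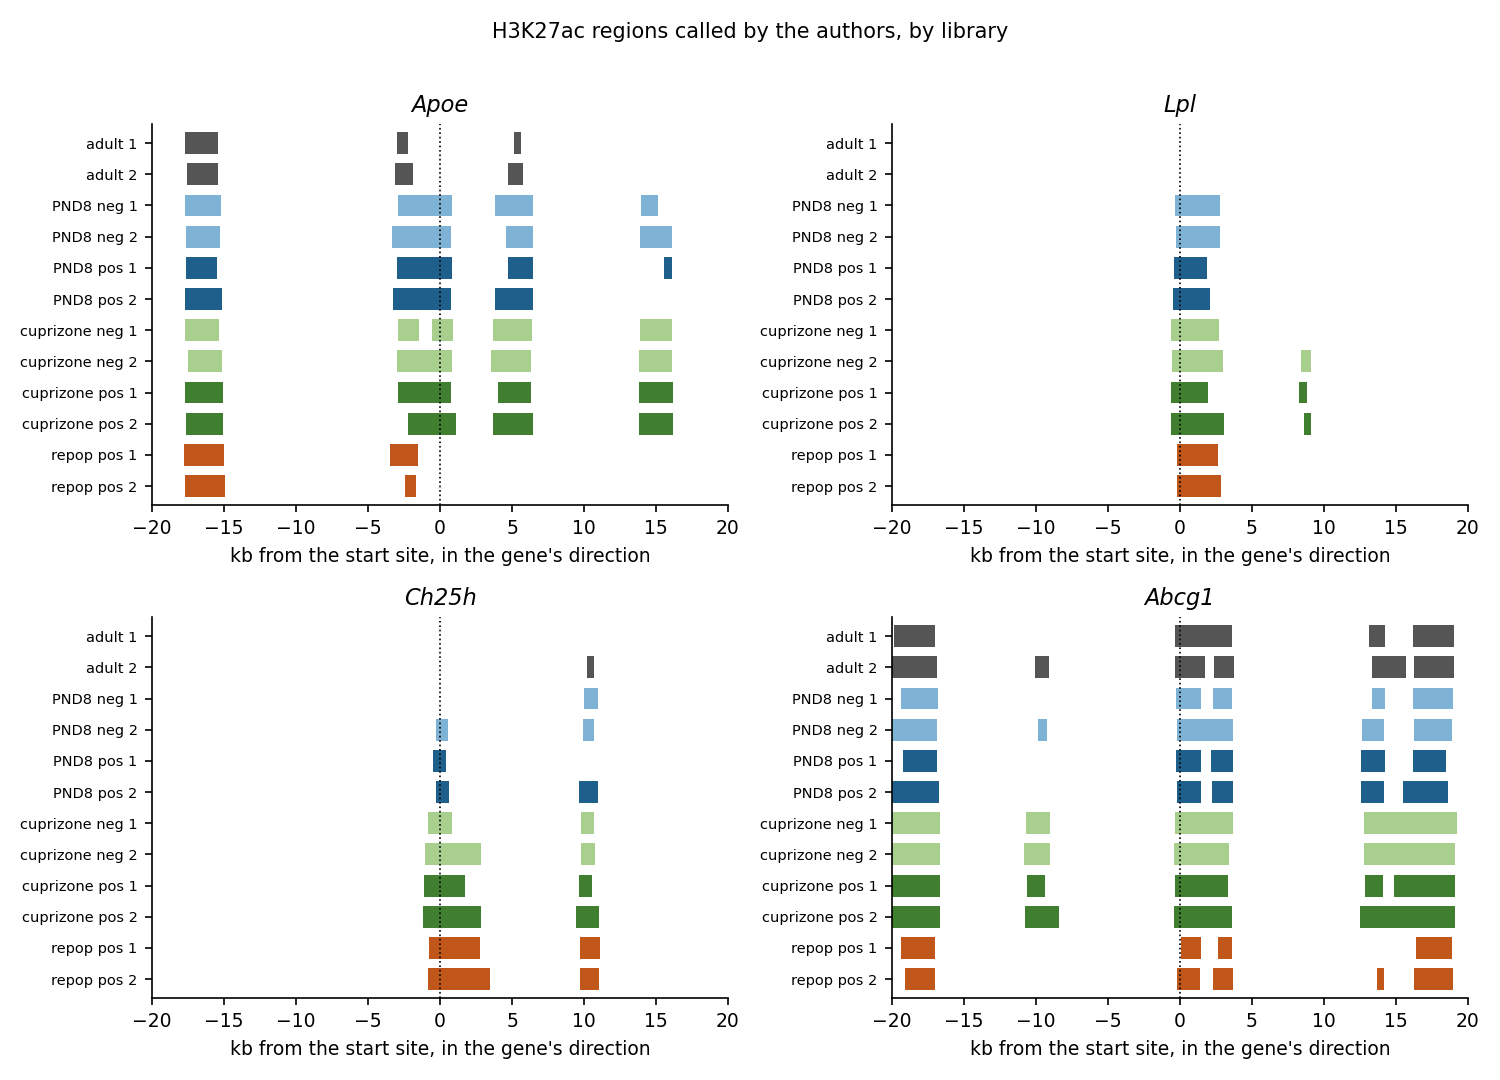
H3K27ac regions called in each of the 12 libraries (rows) within 20 kb of the start sites of Apoe, Lpl, Ch25h and Abcg1 (x axis, kb from the start in the direction of transcription). At Apoe the stretch over the start site is filled in PND8 and cuprizone rows and empty in adult and repopulation rows.

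Other marks were present at the Apoe start in adult cells. H3K4me3, a mark of promoters, covered 57.3 and 42.5% of the 2 kb window in the 2 adult libraries. By signal these regions ranked low, above 25.0 and 19.5% of their lists. ATAC-seq gave a peak within 1 kb in each of its 3 libraries. No peak of Rpb2 was listed within 1 kb in adult or PND8 cells.

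Apoc1, the apolipoprotein gene just downstream of Apoe, moved with it at PND8. It had 1 and 0 counts in adult, 112 and 246 in PND8 Ki67-negative, 107 and 100 in PND8 Ki67-positive and between 0 and 2 in the 4 repopulation libraries. Set against the floor of 3 counts in a library, the PND8 level of Apoc1 was at least 49.7-fold higher than the adult one in Ki67-negative cells and at least 31.9-fold higher in Ki67-positive cells. Of the 7 genes of this neighbourhood that passed the filter, 4 rose and 1 fell in PND8 Ki67-positive cells and 6 rose in Ki67-negative cells, against 49.5% and 46.8% of all tested genes changed in either direction. In repopulation none rose and 1 fell in Ki67-positive cells, and 1 rose and 1 fell in Ki67-negative cells (44.9% and 39.2%).

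Border macrophages surround vessels and line the meninges, and they express Apoe. Most of their markers that changed moved in the same direction as Apoe. Of the 11 that passed the filter, 5 rose and 1 fell in PND8 Ki67-positive (49.5% of all genes changed) and 8 rose in PND8 Ki67-negative cells (46.8%). The share that changed in PND8 Ki67-positive cells was thus near that over all genes, and the gene that fell was Stab1 (log2 −0.24). In repopulation 1 rose in each sort and 8 (Ki67-positive, 44.9%) or 7 (Ki67-negative, 39.2%) fell. The one that rose was Siglec1 (log2 2.23 in Ki67-positive and 3.06 in Ki67-negative cells). All 12 summed to between 1422 and 1534 CPM in adult, 1959 and 2334 in PND8 Ki67-negative, 2073 and 2077 in PND8 Ki67-positive, and 859 and 1105 in repopulation. Stab1 and Mrc1 made up most of these sums, and Lyve1 and Cd209f were at 0 in all repopulation libraries.

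Among astrocyte markers, changes were no more frequent than over all tested genes. Of the 9 that passed the filter, 2 rose in PND8 Ki67-positive (49.5% of all genes changed) and 4 in PND8 Ki67-negative cells (46.8%). In repopulation 1 rose in each sort (44.9% in Ki67-positive and 39.2% in Ki67-negative cells), and none fell in any of these comparisons. Gja1, a gap junction gene, had 2 and 0 counts in adult, 24 and 27 in PND8 Ki67-negative, 76 and 62 in PND8 Ki67-positive and between 0 and 6 in repopulation. Gfap, an astrocyte filament gene, had 2 and 0 counts in adult, 33 and 26 in PND8 Ki67-negative, 24 and 12 in PND8 Ki67-positive and 3 or 4 in repopulation. Both were thus highest at PND8, where Apoe was. Aldh1l1, another marker of this list, went the other way. In repopulation it was above adult (log2 4.04 in Ki67-positive and 4.90 in Ki67-negative cells) and above PND8 (3.46 and 2.72). All 12 summed to between 241 and 249.6 CPM in adult, 112 and 433 in PND8 Ki67-negative, and 65.2 and 378 in PND8 Ki67-positive cells. Repopulation libraries reached 504 and 569 when Ki67-negative and 411 and 422 when Ki67-positive. Slc1a3 made up most of these sums, which were highest in repopulating Ki67-negative cells, and Gjb6 was at 0 in every library.

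Monocyte and neutrophil markers summed to between 75.0 and 249.9 CPM in adult and between 7.71 and 18.5 elsewhere. Immediate early and heat shock genes, which rise when cells are stressed during isolation, summed to between 479 and 508 CPM in repopulation, 1060 and 1112 in adult and 533 and 2089 at PND8. The part of these lists in the results was not tested.

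Lpl encodes the secreted lipase that frees fatty acids from lipoproteins (chr8:68880555-68906932, plus strand). Adult libraries held 48.5 and 46.3 CPM. PND8 libraries held 347 and 512 in Ki67-negative and 381 and 557 in Ki67-positive cells. Repopulation libraries held 125 and 157 in Ki67-negative and 124 and 167 in Ki67-positive cells. The 3 levels were separate, with adult lowest, repopulation between and PND8 highest. Lpl rose 9.89-fold in PND8 Ki67-positive cells (log2 3.31, SE 0.22, edgeR adjusted p = 7.49e-08) and 9.07-fold in Ki67-negative cells. In repopulation the rise was 3.06-fold in Ki67-positive (log2 1.61, SE 0.22, edgeR adjusted p = 5.97e-05) and 2.96-fold in Ki67-negative cells. Repopulation was lower than PND8 by a log2 difference of −1.69 among Ki67-positive cells (edgeR adjusted p = 3.6e-05) and of −1.62 among the Ki67-negative ones. Lpl and Apoe therefore moved together at PND8 and in opposite directions in repopulation.

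Adult microglia had no H3K27ac region within 20 kb of the Lpl start, whereas every other library had one over it, covering 58.5 to 82.3% of the 2 kb window. Over 20 kb each side this was 7.7 and 7.6% in PND8 Ki67-negative and 5.7 and 6.3% in PND8 Ki67-positive cells. It was 8.5 and 10.4% in cuprizone Ki67-negative, 7.7 and 10.3% in cuprizone Ki67-positive, and 7.0 and 7.5% in repopulating cells. The region at the start, chr8:68879910-68883593 when merged, reached 3.0 kb into the gene. A second one, 8.3 to 9.1 kb into the gene, was called in 3 cuprizone libraries only. Adult cells had H3K4me3 over 56.4 and 88.3% of the 2 kb window but no ATAC-seq peak there, whereas PND8 and repopulating cells, with 1 library each, had one. These peaks lay at different positions in the window. By signal they ranked low, above 15.5% of the PND8 list and 17.8% of the repopulation list.

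Abca1 loads cholesterol onto lipid-poor apolipoproteins, and Abcg1 onto particles that already carry lipid. Abca1 lies on chr4:53030789-53159895, minus strand. It held 935 and 913 CPM in adult, 1039 and 903 in PND8 Ki67-negative, and 928 and 1072 in PND8 Ki67-positive cells. It held 566 and 430 CPM in repopulating Ki67-negative and 376 and 257 in Ki67-positive cells. Adult and PND8 levels overlapped, and every repopulation library was below all of them. Abca1 fell by 1.55 on the log2 scale in repopulating Ki67-positive cells (SE 0.16, edgeR adjusted p = 6.26e-06) and by 0.89 in Ki67-negative cells (adjusted p = 0.000748).

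Abcg1 lies on chr17:31057694-31117981, plus strand. It held 345 and 327 CPM in adult, 288 and 345 in PND8 Ki67-negative, and 275 and 321 in PND8 Ki67-positive cells. Repopulating cells held 249 and 189 CPM when Ki67-negative and 163 and 103 when Ki67-positive. The repopulation libraries were again the lowest and did not overlap the rest. Abcg1 fell by 1.33 in repopulating Ki67-positive cells (SE 0.18, edgeR adjusted p = 5.34e-05). The fall of 0.62 in Ki67-negative cells (adjusted p = 0.0136) did not pass with DESeq2 (0.055) or without any 1 of adult replicate 1 (0.0798), adult replicate 2 (0.0512) and repopulation Ki67-negative replicate 2 (0.142).

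Within repopulation, both transporters were lower in Ki67-positive than in Ki67-negative cells. For Abca1 the log2 difference was −0.66 (SE 0.16, edgeR adjusted p = 0.0494), and for Abcg1 it was −0.71 (SE 0.18, adjusted p = 0.0522), which missed the threshold. With a term for the header code, which Ki67-positive and Ki67-negative libraries of the same replicate number share, both passed (adjusted p = 9.78e-05 and 4.15e-06), as they did with the replicate number as a block (0.00769 and 0.0133). Taken by header code, the differences were −0.59 and −0.74 for Abca1 and −0.61 and −0.87 for Abcg1. At PND8 they were −0.16 and 0.25 for Abca1 and −0.07 and −0.10 for Abcg1. The difference between these Ki67 effects was −0.70 (SE 0.23) for Abca1 and −0.63 (SE 0.25) for Abcg1, and neither passed (adjusted p = 0.96 for both in edgeR), whereas both did with the header code as a term (0.0279 and 0.0138) and neither with the replicate block (0.39 and 0.60). Without a term or block no gene of the 12230 did (0%), with 613 at an unadjusted p under 0.05 and 3 genes called by DESeq2.

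The call for Abca1 without that term is a close one. It was not made by DESeq2 (adjusted p = 0.0884), by limma on TPM, or when only the groups compared were fitted (0.128). Leaving out either adult library (0.0886 and 0.0868), either PND8 Ki67-positive library (0.0598 and 0.0594), repopulation Ki67-negative replicate 1 (0.448) or Ki67-positive replicate 2 (0.487) also ended it.

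**Figure D3:**
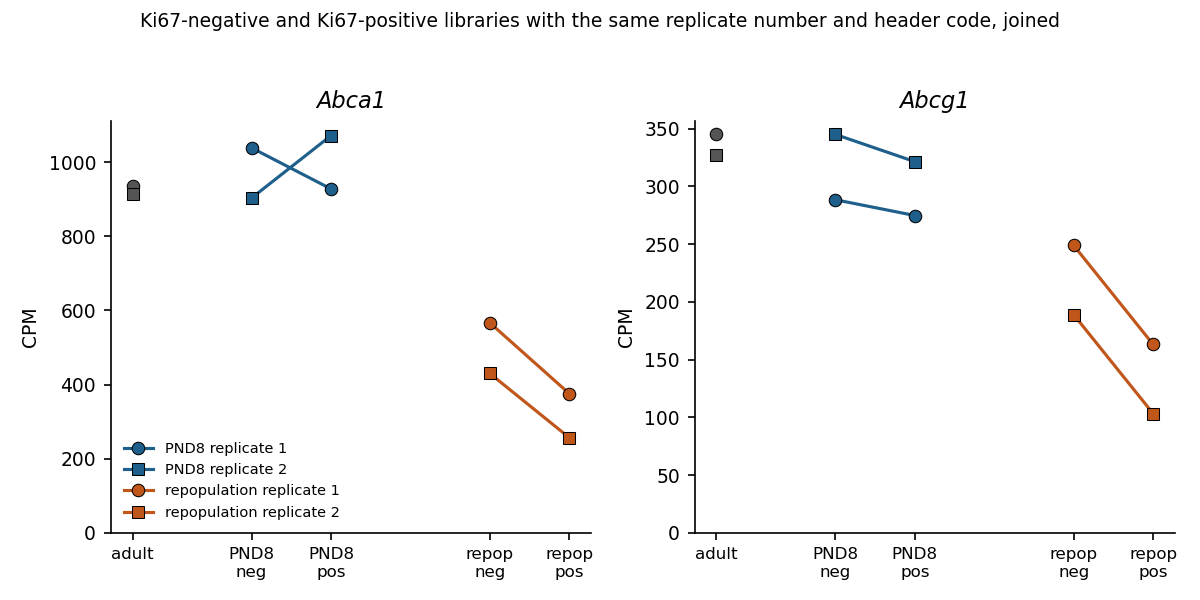
Abca1 and Abcg1 in CPM in Ki67-negative and Ki67-positive cells, with lines joining libraries of the same header code at PND8 and in repopulation. Both repopulation lines fall from Ki67-negative to Ki67-positive for each gene, and the Abca1 lines of PND8 cross.

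The Abca1 promoter (250 bases before the start, chr4:53159896-53160145, minus strand, RefSeq, GRCm38.p6) is printed beside the Apoe one because it carried H3K27ac in every library. It has 20 CpG pairs where the Apoe stretch has 8, and no match to the motifs as searched:
Abca1 upstream: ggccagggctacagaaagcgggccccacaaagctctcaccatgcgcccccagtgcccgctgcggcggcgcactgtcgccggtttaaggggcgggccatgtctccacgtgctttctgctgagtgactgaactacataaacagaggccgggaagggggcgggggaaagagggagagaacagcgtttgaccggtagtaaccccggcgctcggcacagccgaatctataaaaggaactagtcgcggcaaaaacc
Searches ran on both strands. The first was AGGTCA, the short site that nuclear receptors bind, present in 16.3% of all promoter windows. The liver X receptor element is a pair of such sites spaced by 4 bases, and with at most 2 mismatches it was present in 3.02%. Pairs with more mismatches were not counted. The Abca1 stretch holds such a pair on the other strand, printed above as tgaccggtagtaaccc. TGANTCA, bound by AP-1, was in 7.81%. A pair of GAAA spaced by 2 bases, as in interferon response elements, was in 3.44%. The last was GAGGAA. In the 10 windows of the 7 genes that matched the RefSeq table, GAGGAA alone was found, at Apoe and Nr1h3. Lpl and Abcg1 were not matched. A window without a match may still hold a site that differs more from these letters, and says nothing about sites elsewhere.

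H3K27ac covered 57.2 to 67.3% of the 2 kb window at the Abca1 start in all 12 libraries. Over 20 kb each side coverage was 10.4 and 13.7% in adult, 9.9 to 14.1% at PND8, 17.2 to 18.3% in the 4 cuprizone libraries and 10.3 and 11.6% in repopulation. Of these, the cuprizone libraries alone lay clear of the adult ones. At Abcg1 coverage was 26.9 and 32.1% in adult, 34.3 to 40.7% in cuprizone and 18.1 and 20.4% in repopulation, which lay below the adult libraries. PND8 (23.2 to 29.6%) overlapped adult. By the authors' signal, the promoter region of Abca1 stood above 62.3 and 59.2% of the other regions in the 2 repopulation lists and above 91.7 to 96.6% in the other 10. For Abcg1 these values were 47.4 and 43.2% against 76.7 to 99.0%. The lists differ in length, so these ranks describe each list only.

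Ch25h makes 25-hydroxycholesterol, an oxysterol of activated macrophages (chr19:34473784-34475148, minus strand, a gene of 1 exon). Raw counts were 15 and 14 in adult, 0 and 13 in PND8 Ki67-negative, and 12 and 6 in PND8 Ki67-positive cells. They were 294 and 286 in repopulating Ki67-negative and 194 and 231 in Ki67-positive cells. In CPM this was at most 1.73 outside repopulation and 22.4 to 43.6 within it. The library at 0 could have held up to 0.371 CPM, the level of 3 counts there. Ch25h rose 16.0-fold in repopulating Ki67-positive cells (log2 4.00, SE 0.45, edgeR adjusted p = 9.61e-06) and 21.2-fold in Ki67-negative cells (log2 4.41, SE 0.44, adjusted p = 4.52e-06). Against PND8 the log2 difference was 4.75 in Ki67-positive cells (adjusted p = 6.63e-06), and 4.61 between the libraries that share a header code. In Ki67-negative cells it was 5.74, and lower both without the PND8 library at 0 counts (4.93) and between the libraries that share a header code (4.43).

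Genes of the interferon response, a program that also induces Ch25h in macrophages, were high in the same libraries. All 12 on the list rose against adult in repopulating Ki67-positive (44.9% of all genes changed) and Ki67-negative cells (39.2%). The sums of these 12 genes were 1044 to 1295 CPM there against 246 to 319 in the adult and PND8 libraries. Their part in the rise of Ch25h was not tested.

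The 250 bases before the Ch25h start (chr19:34475149-34475398, minus strand, RefSeq, GRCm38.p6) are shown because H3K27ac there ran from none to nearly full cover across the groups. None of the motifs was found:
Ch25h upstream: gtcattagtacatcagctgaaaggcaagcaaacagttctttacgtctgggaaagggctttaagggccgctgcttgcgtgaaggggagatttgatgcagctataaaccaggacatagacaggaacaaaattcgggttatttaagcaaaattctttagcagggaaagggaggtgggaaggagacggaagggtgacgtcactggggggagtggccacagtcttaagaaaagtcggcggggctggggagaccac
No H3K27ac region lay within 1 kb in the 2 adult libraries or in PND8 Ki67-negative replicate 1, and 41.3 to 44.9% of the window was covered in the other 3 PND8 libraries. Cuprizone libraries had 82.9 to 100% and repopulation libraries 86.7 and 91.9%. By signal, the regions of those 3 PND8 libraries ranked low, above 8.3 to 17.0% of their lists. In cuprizone these ranks were 48.5 to 94.7%, and in repopulation 91.9 and 93.4%. Over 20 kb each side coverage was 0.0 and 1.3% in adult, 2.2 to 5.5% at PND8, 6.4 to 14.0% in cuprizone and 12.3 and 14.0% in repopulation. The cuprizone range thus overlapped that of repopulation. RNA of cuprizone microglia was not analysed here. ATAC-seq peaks covered 23.0% of the 2 kb window in repopulation, 5.9% at PND8 and 5.6% in adult.

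Soat1 stores cholesterol as esters in lipid droplets (chr1:156428108-156474328, minus strand). It held 183 and 198 CPM in adult and 172 to 205 at PND8, so these overlapped. Repopulation libraries were lower, with 163 and 153 in Ki67-negative and 139 and 129 in Ki67-positive cells. Soat1 fell by 0.51 on the log2 scale in repopulating Ki67-positive cells (SE 0.092, edgeR adjusted p = 0.000589). The fall of 0.27 in Ki67-negative cells (adjusted p = 0.0326) did not pass with DESeq2 (0.0631) or without adult replicate 1 (0.0649), adult replicate 2 (0.223), repopulation Ki67-negative replicate 1 (0.0598) or replicate 2 (0.182). H3K27ac covered 60.3 to 63.8% of the 2 kb window in all 12 libraries.

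Of the receptors, Nr1h2 (chr7:44549616-44553965, minus strand) held 121 to 140 CPM in all 10 libraries, and Nr1h3 (chr2:91184061-91195035, minus strand) held 1.39 to 4.89. Neither changed from adult in any of the 4 comparisons, although limma on log2(TPM + 1) called a lower Nr1h2 in repopulation (log2 −0.20 in Ki67-positive and −0.22 in Ki67-negative cells). Nr1h3 was lowest in PND8 Ki67-positive cells, at 1.54 and 1.39 CPM from 14 and 12 counts. Repopulating Ki67-positive cells had 3.70 and 3.45 CPM. This rise, 1.28 on the log2 scale (SE 0.43, edgeR adjusted p = 0.0379), did not pass with DESeq2 (0.0855), without any 1 of the 4 libraries compared (0.115 to 0.182), or without repopulation Ki67-negative replicate 1 (0.0546) or replicate 2 (0.0511). H3K27ac covered 79.0 to 100% of the window at Nr1h2 and 0 to 65.8% at the Nr1h3 start used here. RefSeq extends Nr1h3 upstream to chr2:91202829. A region there, chr2:91202201-91203633, which also overlaps Acp2, was called in all 12 libraries.

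Mylip (chr13:45389742-45411940, plus strand) was the one gene of the set whose fall from adult passed the threshold in every other RNA group. It held 433 and 432 CPM in adult, 257 and 267 in PND8 Ki67-negative, and 217 and 235 in PND8 Ki67-positive cells. Repopulating cells held 266 and 259 CPM when Ki67-negative and 238 and 218 when Ki67-positive. The adult libraries stood apart from the 8 others, which lay within 217 to 267. Mylip fell by 0.94 (PND8 Ki67-positive, SE 0.081, edgeR adjusted p = 7.5e-07), 0.72 (PND8 Ki67-negative, 1.01e-05), 0.92 (repopulation Ki67-positive, 9.99e-07) and 0.72 (repopulation Ki67-negative, 1.28e-05) on the log2 scale. PND8 and repopulation did not differ past the threshold, with Ki67-positive or Ki67-negative cells. H3K27ac did not show this split in the windows used throughout. Regions covered 52.6 to 61.6% of the 2 kb window in all 12 libraries, and the adult values over 20 kb (11.5 and 18.0%) spanned most of the others. Other settings differed. Both PND8 sorts were lower than adult with 5 or 10 kb each side, with the 15000 regions of highest score and after division by total region length. Repopulation was lower by length but higher with 10 kb. Cuprizone was lower by length in Ki67-negative and higher with 10 kb in Ki67-positive cells.

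**Figure D4:**
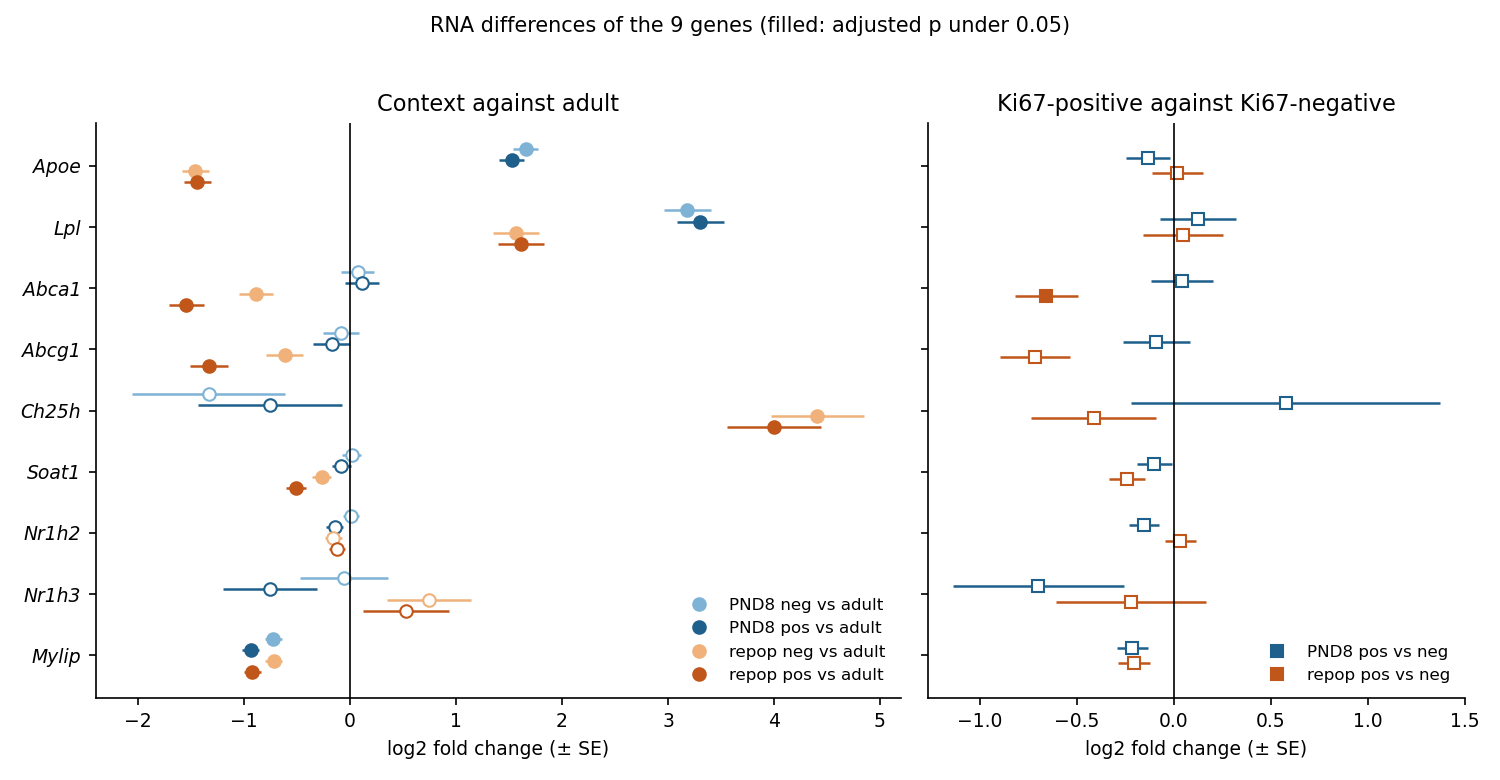
Log2 fold change of each of the 9 genes against adult (left) and of Ki67-positive against Ki67-negative cells (right), with bars of 1 SE on each side and filled points for an adjusted p under 0.05. On the left Apoe lies above 0 at PND8 and below 0 in repopulation, Lpl is above 0 in both, and Mylip is below 0 in both, and on the right Abca1 in repopulation alone is filled.

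Counted over the set, H3K27ac within 20 kb was higher than adult, with both libraries above both adult ones, at 4 of the 9 genes in PND8 Ki67-negative cells, where 29.4% of all 20999 genes were higher and 3.65% lower. It was higher at the same 4, Apoe, Lpl, Ch25h and Nr1h2, in PND8 Ki67-positive cells (35.3% higher and 2.51% lower over all genes). In cuprizone Ki67-negative cells it was higher at 5, Apoe, Lpl, Abca1, Abcg1 and Ch25h (20.7% and 1.65%). In cuprizone Ki67-positive cells Soat1 and Nr1h2 joined them, which made 7 (25.8% and 2.29%). In repopulation it was higher at Lpl, Ch25h and Nr1h2 and lower at Abcg1 (36.6% and 1.93%). These counts depend on how much was called in each list. Divided by the total length of regions, repopulation was higher at the same 3 genes and lower at the 6 others (15.4% higher and 17.2% lower over all genes). PND8 Ki67-positive cells then had 3 higher (Apoe, Lpl and Ch25h) and 5 lower (17.9% each), and PND8 Ki67-negative cells the same 3 higher and 3 lower (15.7% and 18.7%). Cuprizone cells of either sort had 4 higher, these 3 and Soat1, with 2 lower in Ki67-negative (7.70% and 16.4%) and 1 in Ki67-positive cells (11.8% and 18.2%). Between Ki67-positive and Ki67-negative cells it was lower at Apoe and Lpl at PND8 (17.0% and 5.51%) and overlapped at all 9 in cuprizone (8.56% and 5.95%). With 2 libraries against 2 no exact permutation test can pass the threshold, so none was run. A window of this size can hold regions of other genes. Around Nr1h2 the region over the start was called in all 12 libraries. The other one, 4.9 to 6.4 kb downstream, overlaps the neighbouring gene Pold1 and not Nr1h2, and was called in 9 libraries but in no adult one.

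A region within 1 kb of the start was called in both libraries at 5 of 9 genes in adult (40.8% of all genes), 8 in PND8 Ki67-negative (48.1%), 9 in PND8 Ki67-positive (49.2%), 8 in cuprizone Ki67-negative (43.8%), 9 in cuprizone Ki67-positive (45.8%) and 7 in repopulating cells (47.2%). The 4 without one in adult were Apoe, Lpl, Ch25h and Nr1h3, and the 2 in repopulation were Apoe and Nr1h3. Each gene was taken at the start of 1 transcript, and at the upstream RefSeq end of Nr1h3 a region was called in all 12 libraries. Adult lists were among the shorter ones, with 30.0 and 42.1 Mb covered against 40.7 to 52.2 Mb in the other lists.

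**Figure D5:**
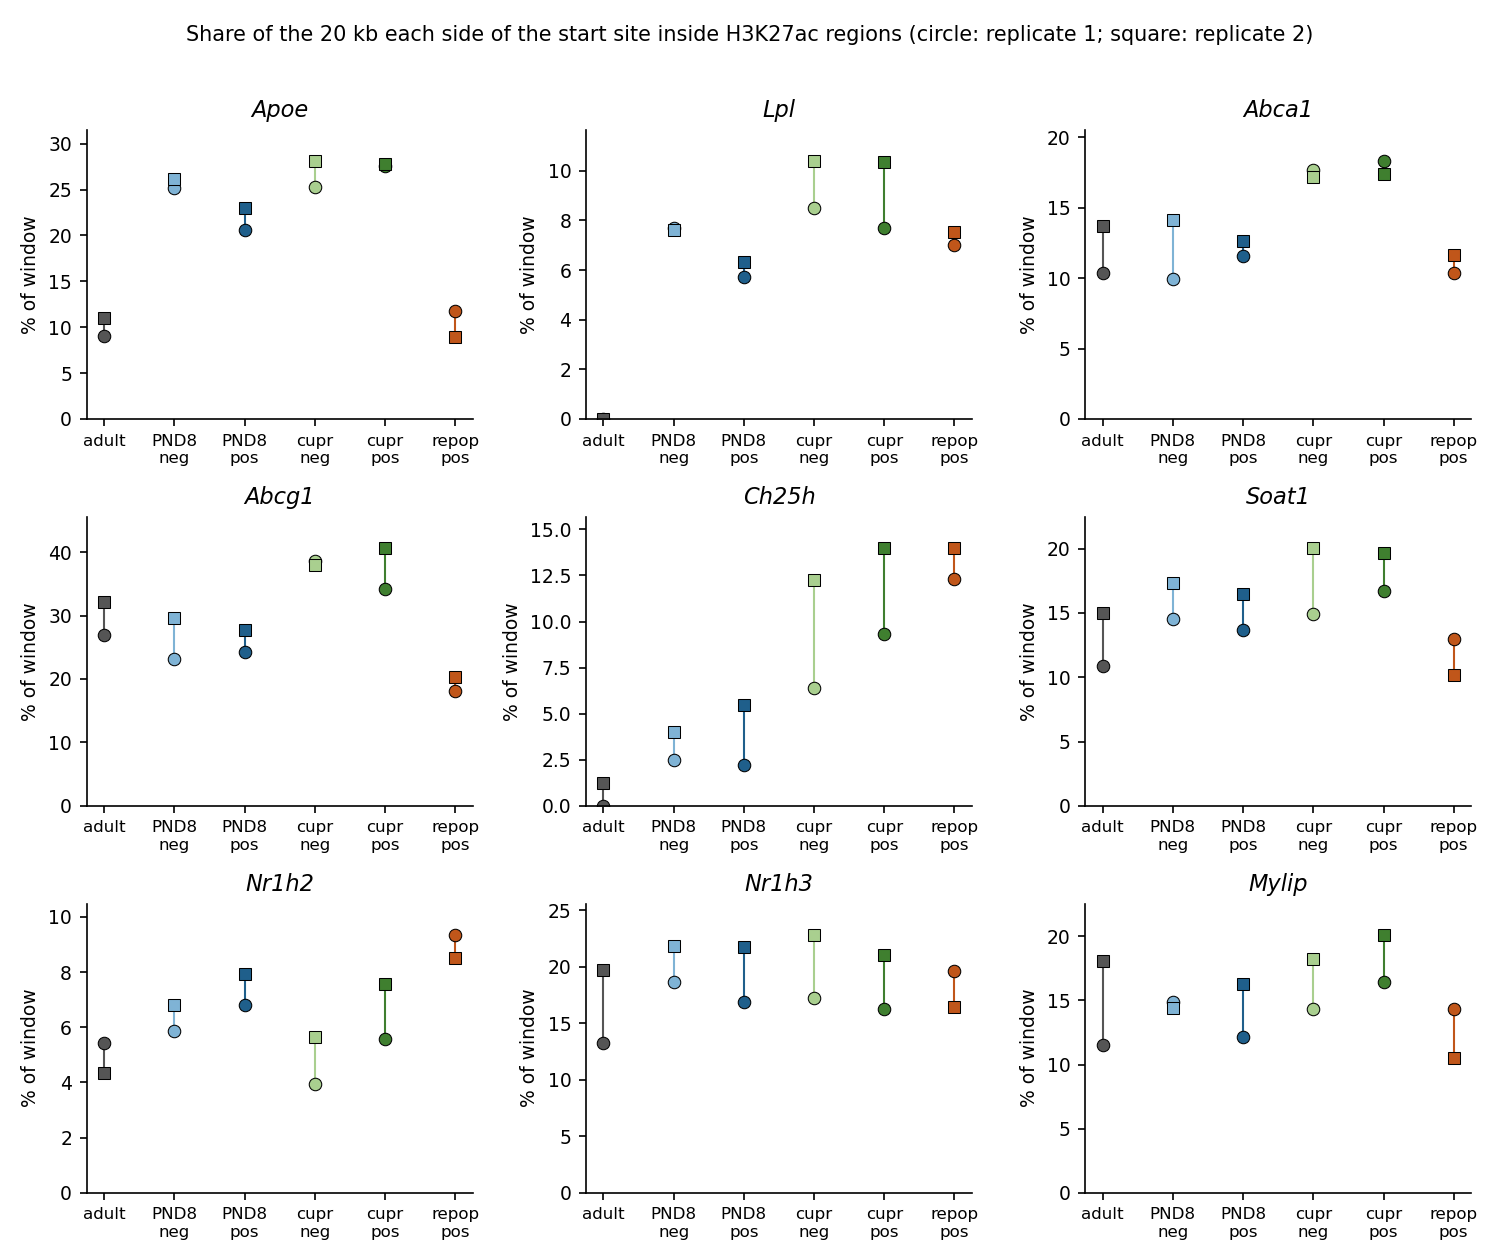
Percent of the window of 20 kb each side of the start that lies in called H3K27ac regions, for each of the 9 genes and each of the 12 libraries (points; lines join the 2 libraries of a group). Apoe is low in adult and repopulation, and Lpl is at 0 in adult alone.

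Other genes of the pathway, taken from fixed lists, are counted here in Ki67-positive cells against adult, where 49.5% of all tested genes changed at PND8 (3073 rose and 2976 fell) and 44.9% in repopulation (2918 rose and 2571 fell). Of 10 lipoprotein and lipid receptors, 6 rose and 1 fell in PND8 Ki67-positive cells (median log2 difference 0.48), and 6 rose and none fell in repopulating Ki67-positive cells (0.44). The 7 lists lay on both sides of these shares. Sorl1, a sorting receptor of this list, fell by 1.53 on the log2 scale at PND8. Cd36, the fatty acid and oxidised lipoprotein receptor, went from 2.20 and 1.22 CPM in adult to 233 and 312 in repopulating Ki67-positive cells (log2 7.29, adjusted p = 3.72e-08).

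Of 17 other sterol and lipid transporters, 5 rose and 6 fell at PND8, and 5 rose and 5 fell in repopulation (Ki67-positive cells). Stard4, a carrier of cholesterol in the cytosol, went from 5.67 and 5.74 CPM in adult to 36.1 and 54.1 in repopulating Ki67-positive cells (log2 2.97). Abca9, a further ABC transporter, fell by 0.81 there. Of 16 receptor partners, cofactors and further targets of the liver X receptors, 3 rose and 7 fell at PND8 and 4 rose and 6 fell in repopulation, again in Ki67-positive cells. Scd2, a fatty acid desaturase, rose by 1.39 at PND8. Its relative Scd1 had 4 and 1 counts in adult and 39 and 37 in repopulating Ki67-positive cells (log2 3.98, adjusted p = 0.00071). The receptor partner Rxrg had 20 and 22 counts in adult and 0 and 2 in PND8 Ki67-positive cells, at least 7.22-fold lower.

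Of 15 genes of cholesterol esters and lipid droplets, 7 rose and 6 fell at PND8 and 3 rose and 3 fell in repopulation (Ki67-positive cells). Soat2, the relative of Soat1, fell by 2.17 and 2.43. Of 7 oxysterol genes, 2 rose and 3 fell at PND8 and 2 rose and 2 fell in repopulation, and Cyp27a1, which makes another oxysterol, fell by 1.08 at PND8. Of 8 partners and regulators of the lipase, 2 rose and 2 fell at PND8 and 1 rose and 1 fell in repopulation. Angptl4, an inhibitor of the lipase, had 4 and 1 counts in adult and 44 and 88 in PND8 Ki67-positive cells (log2 4.59, adjusted p = 0.000245). Lmf2 of this list rose by 1.17 in repopulating Ki67-positive cells. It was also the gene of these lists that was higher in Ki67-positive than in Ki67-negative cells both at PND8 (log2 0.55) and in repopulation (0.62). Of 10 other apolipoproteins and lipoprotein proteins, 3 rose and none fell at PND8 and 1 rose and 1 fell in repopulation.

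Over the 10 libraries, the pattern of Apoe was most like those of Abcg3 (Pearson r = 0.989 of log2 CPM), Npl (0.988) and Idh2 (0.987). Abcg3 averaged 21.0 CPM in adult, 57.4 and 48.0 at PND8 (Ki67-negative, Ki67-positive) and 11.6 and 11.1 in repopulation. Lpl was most like Psat1 (0.992), Gas7 (0.986) and Smarcc1 (0.985). Gas7 averaged 2.84 CPM in adult, 121 and 134 at PND8 and 26.0 and 20.1 in repopulation. Abca1 was most like Zcchc24 (0.991), Nrp2 (0.990) and Fnip2 (0.988), and Abcg1 like Syt8 (0.977), Tmem104 (0.973) and Tmem8b (0.967). Ch25h was most like Fgl2 (0.985), Mical1 (0.984) and Cmpk2 (0.983). Fgl2 averaged 18.1 CPM in adult, 10.7 and 14.0 at PND8 and 99.6 and 90.6 in repopulation. Among the set itself, r was 0.955 between Abca1 and Abcg1 and −0.932 between Apoe and Ch25h. The libraries fall into 5 groups of 2, so these values describe group levels and carry no test.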

How the data were processed

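RNA was measured in 10 libraries and H3K27ac in 12, and lists for H3K4me3, Rpb2 and ATAC-seq were used to describe the start sites. Groups came from the labels. Per the file headers, the authors made the deposited counts with HOMER over exons of mm10 transcripts, 1 transcript for each gene, with no adjustment and at most 3 tags counted at a position. The submitters' processing notes list STAR 2.7.0f, Bowtie2 2.3.4.1 and HOMER 4.11. Per the file headers, HOMER also gave the deposited TPM values, and for 4532 genes (Apoe, Nr1h2 and Nr1h3 among them) they use another transcript than the counts. H3K27ac regions were called by the authors in each library separately, at least 4-fold over input at a false discovery rate of 0.001, per the file headers. The deposited signal of a region is its tag count scaled to a fixed number of tags, and its score is that of the caller, per the file headers. Both were used within a list only. Headers of the adult H3K27ac and Rpb2 lists mention a vehicle that the labels do not, and the ATAC-seq headers name no build and were read as mm10. Inputs entered through the authors' calls alone.

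Counts were tested with edgeR 4.0.16 in R 4.3.3 (TMM factors, filterByExpr by group, 1 quasi-likelihood fit over the 5 groups, Benjamini-Hochberg over the genes tested in each comparison, threshold 0.05). Alternatives used DESeq2 1.42.0, limma 3.58.1 on log2(TPM + 1) and log2(TPM + 0.1), other scalings and filters, fits without each library, and fits with a term for the header code. Coverage is the share of a window (1 or 20 kb each side of the start site) inside called regions. The 9 genes appear in every comparison. From each list the text names at most the largest rise and the largest fall of the comparison described, and the 3 genes most correlated with each of 5 members. Stab1, Mrc1, Lyve1, Cd209f, Slc1a3, Gjb6, Gja1, Gfap and Aldh1l1, named among the markers, were chosen after their values were seen. The genes and lists were chosen with earlier results of these data known.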

Additional observations from a re-analysis of the deposited data

Results flagged for a closer look

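For 7 genes in Ki67-positive and 6 in Ki67-negative cells, the difference from adult was not the same in repopulation as at PND8. The adult libraries are shared, so this is the direct edgeR test of repopulation against PND8 with its log2 difference. Apoe was higher than adult at PND8 and lower in repopulation, and the differences between these were −2.97 (Ki67-positive) and −3.12 (Ki67-negative). Lpl was above adult in both, by less in repopulation (−1.69 and −1.62). For the transporters, which were lower in repopulation, the values were −1.66 and −0.96 for Abca1 and −1.16 and −0.53 for Abcg1. Ch25h gave the largest ones of the 9 genes, 4.75 and 5.74, from counts of 0 to 13 in the PND8 libraries. The second of these ran from 4.70 to 11.26 over the alternatives, the highest of which rests on the PND8 library at 0 counts alone, and was 4.43 between libraries that share a header code. Soat1 gave −0.43 and −0.28, and Nr1h3 gave 1.28 in Ki67-positive cells, from at most 47 counts in a library. In Ki67-negative cells Nr1h3 was also higher, by 0.80, which did not pass (edgeR adjusted p = 0.129), and the Ki67 effects did not differ past the threshold (0.974). Groups of 2 libraries are too small for a test of single outlying libraries.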

How the results depend on the processing

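Of 81 pairs of a gene and an RNA comparison, 34 passed, and none of them changed sign under an alternative. Apart from a test for a change beyond 2-fold, 28 passed under every alternative. The 6 others (Abca1 by Ki67 in repopulation, Abcg1 and Soat1 in repopulating Ki67-negative cells against adult and against PND8, Nr1h3 against PND8) lost their call in at least 1. The Ki67 comparison at PND8 had 0 of 9 genes called, and 1 (Mylip) with the header code as a term. That in repopulation had 1, but 0 with DESeq2, the 2-fold test, limma on either TPM scale or the groups compared alone. It had 2 with upper-quartile factors, no filter, the replicate block or the header code as a term, and 0 to 2 without 1 library. The difference between the Ki67 effects had 0, and 2 with no filter or the header code. The 2-fold test left 4 and 3 of 7 for repopulating Ki67-positive and Ki67-negative cells against adult, and 4 of 7 and 3 of 6 against PND8. The cause was not tested. Of the pairs that did not pass, 8 did under some alternative, among them Nr1h2 in repopulation with limma.

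Replicate numbers are shared between groups, but the labels do not say that they pair samples. Deviations of same-numbered libraries correlated at 0.338 (PND8) and 0.263 (repopulation), where they share a header code, and at −0.008 to 0.097 elsewhere. The replicate block took the genes called by Ki67 from 721 to 1228 at PND8 and from 335 to 711 in repopulation, and the header code took them to 1862 and 1213. With no filter they were 1290 and 736, with the 2-fold test 49 and 31, and without 1 library 220 to 1113 and 105 to 627. The difference between the Ki67 effects, with 0 genes, had 52 with no filter, 28 with the header code and up to 71 without 1 library. The 2-fold test took PND8 Ki67-positive against adult from 6049 to 1055 and Ki67-negative from 5720 to 905. It took repopulation against adult from 5489 to 916 and 4789 to 760, and against PND8 from 3778 to 492 (Ki67-positive) and 4473 to 600. Without 1 library those last 4 went as low as 3640, 3078, 2269 and 2869. With library sizes alone, the 2040 higher and 1738 lower genes of repopulation against PND8 became 1730 and 2222 (Ki67-positive), and 2203 and 2270 became 1829 and 3064 (Ki67-negative), where the median of all genes moved from −0.04 to −0.13. No called gene of the 9 changed sign there.

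The H3K27ac count of genes without overlap is given with the share over all genes under the same setting. For PND8 Ki67-negative against adult it was 4 (33.0%) and 6 to 7 with 1 library left out (42.2 to 52.9%). For PND8 Ki67-positive it was 4 (37.9%), 7 with 10 kb (34.4%), 8 after division by total region length (35.8%) and 5 to 8 with 1 library left out (45.4 to 54.8%). For cuprizone it was 5 in Ki67-negative (22.4%; 5 to 9 with 1 library left out, 34.0 to 51.1%) and 7 in Ki67-positive cells (28.1%; 4 with 5 kb, 24.5%). For repopulation it was 4 (38.6%), 7 with the 15000 regions of highest score (24.9%), 9 by length (32.6%; 3 higher and 6 lower) and 5 to 8 with 1 library left out (47.7 to 54.1%). By Ki67 at PND8 it was 2 (22.5%), 1 with 10 kb (21.1%) or 15000 regions (17.7%), 5 by length (24.9%) and 5 to 6 with 1 library left out (39.1 to 48.0%). By Ki67 in cuprizone it was 0 (14.5%), 1 with 5 kb (15.2%), 2 with 10 kb (15.0%), 4 with 15000 regions (16.7%) or by length (18.0%), and 4 to 5 with 1 library left out (35.5 to 42.2%). Leaving out 1 library thus raised the share over all genes as well.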
